A study of Mus musculus with 15 samples.

Results

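Catalase, the peroxiredoxins and the glutathione peroxidases are the main enzymes that remove hydrogen peroxide (H2O2) from mammalian cells. Their genes were followed here by 10 symbols, namely those of catalase (Cat), Prdx1, Prdx2, Prdx3, Prdx4, Prdx5, Prdx6, Gpx1, Gpx4 and Gpx8. They are 10 of the 55341 gene symbols in the deposited count table, and all 10 were among the 13085 genes with enough counts to be tested. The 6DT1 line is a mammary cancer line grown from mice with the FVB/N1 background, and RNA was taken from its wild-type cells (WT) and from cells with Clic4, a chloride intracellular channel gene, knocked out (KO). Each genotype was left untreated or given 1 µM H2O2, and lysed after 24 h. There were 4 untreated WT libraries (replicates 9 to 12), 4 H2O2-treated WT libraries (13 to 16), 4 untreated KO libraries (1 to 4) and 3 H2O2-treated KO libraries (5, 7 and 8). The labels give neither the number of KO clones nor whether replicates were grown apart, so the p-values measure the spread between these libraries, which may be technical. Genotype cannot be told apart from clone. In bulk RNA, fewer cells with a transcript and less of it per cell cannot be told apart either.

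The libraries held 12.31 to 16.03 M counts. Clic4 itself stood at 313 to 326.7 counts per M (CPM) in the 8 WT libraries and at 64.16 to 75.91 CPM in the 7 KO libraries. WT replicate 9 is titled, described and sourced as untreated WT while its genotype field reads knockout, and its Clic4 level of 326.7 CPM was on the WT side. The same library held 1916 counts of 13 blood-cell markers (129 CPM in sum, with counts for 10 of the 13, hemoglobins at 7 counts or fewer), against 1.44 to 4.31 CPM in the other 14 libraries. Without it the log2 differences between untreated KO and WT cells were −0.25 for Prdx1, 0.16 for Prdx2 (adjusted p 0.00159), 0.97 for Prdx4, −0.30 for Prdx5, −0.18 for Prdx6, −0.29 for Gpx4 and 0.22 for Gpx8 (adjusted p 0.0169), all called as with it, and −0.05 for Prdx3, not called. Cat and Gpx1 without it are given with their other values. Of 9 mammary epithelial markers, summed at 922 to 1060 CPM in all libraries, Krt8, Krt18 and Krt19 carried the counts, while Epcam (0 to 1 count) and Cdh1 (0 to 2 counts) were near 0. The keratins did not move together: in untreated KO against WT cells Krt18 fell by log2 −1.12 (333.8 against 153.5 CPM, adjusted p 6.93e-21), Krt19 rose by log2 1.52 (54.25 against 156 CPM, adjusted p 1.01e-18) and Krt8 was not called (log2 0.01, adjusted p 0.868). Fibroblast markers summed to 11.3 to 14 CPM in KO and 16.9 to 23.1 CPM in WT libraries, and endothelial markers to 2.92 to 3.77 CPM in KO and 0.85 to 1.51 CPM in WT libraries other than replicate 9 (3.51 CPM). These markers did not move together either. Most of the fibroblast sum was Pdgfra (19.51 CPM in untreated WT, 10.99 in untreated KO), while Col1a2 had 1 to 2 and 3 to 6 counts. In the same groups Cdh5 (9 to 12, 19 to 33 counts) and Tie1 (0, 19 to 24) were higher in KO, and Kdr (3 to 6, 0 to 3) was not. The part of these markers in the genotype differences was not tested.

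Catalase is a heme enzyme of peroxisomes that splits H2O2 into water and oxygen without needing a reductant. Peroxiredoxins react with H2O2 through a cysteine, which in most of them thioredoxin or glutathione then reduces. Glutathione peroxidases carry selenocysteine or cysteine at the active site, and Gpx1 and Gpx4 draw on glutathione. Prdx1, Prdx2 and Prdx6 are mostly cytosolic, Prdx3 is mitochondrial, Prdx4 lies in the endoplasmic reticulum (ER), and Prdx5 is found in mitochondria, peroxisomes and cytosol. Gpx1 acts on soluble peroxides, Gpx4 reduces lipid hydroperoxides in membranes, and Gpx8 is an ER membrane protein.

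The coding sequence around the reactive residue is shown because the members differ in the residue that meets peroxide. Each line below gives 7 codons on either side of the reactive codon, read 5′ to 3′ from the longest complete coding transcript in GENCODE M21 (mm10), with the reactive codon in capitals.
Prdx1: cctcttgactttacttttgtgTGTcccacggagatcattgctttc
Prdx2: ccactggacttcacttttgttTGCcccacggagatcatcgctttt
Prdx3: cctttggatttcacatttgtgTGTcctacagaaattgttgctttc
Prdx4: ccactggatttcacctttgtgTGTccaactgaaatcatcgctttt
Prdx5: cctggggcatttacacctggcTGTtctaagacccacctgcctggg
Prdx6: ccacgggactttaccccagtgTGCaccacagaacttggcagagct
Gpx1: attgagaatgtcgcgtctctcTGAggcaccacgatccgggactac
Gpx4: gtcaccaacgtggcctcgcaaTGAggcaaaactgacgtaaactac
Gpx8: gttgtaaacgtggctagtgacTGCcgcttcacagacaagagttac
The 6 peroxiredoxins carry a cysteine codon (TGT or TGC). Gpx1 and Gpx4 carry an in-frame TGA, which in a selenoprotein messenger is read as selenocysteine, and Gpx8 carries TGC, a cysteine codon, in its place. Prdx1, Prdx2, Prdx3 and Prdx4 were close to each other, with 32 to 38 identical bases of 45 between any 2 of them. Prdx5 and Prdx6 matched these 4 at 19 to 26 of 45 bases. Gpx1, Gpx4 and Gpx8 matched one another at 23 to 25 bases. Between a peroxiredoxin and a glutathione peroxidase 11 to 19 bases matched. The capital codon lies at codon 52 of 199 in Prdx1, 51 of 198 in Prdx2, 109 of 257 in Prdx3, 127 of 274 in Prdx4, 99 of 213 in Prdx5 and 47 of 224 in Prdx6. It lies at codon 47 of 201 in Gpx1, 129 of 253 in Gpx4 and 79 of 209 in Gpx8. Catalase has a heme centre and no such codon.

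The genes lie apart in the genome, and on mm10 the annotation places Cat at chr2:103453849-103485160 on the minus strand. Prdx1 lies at chr4:116685544-116700822 (plus), Prdx2 at chr8:84969587-84974834 (plus), Prdx3 at chr19:60864051-60874556 (minus) and Prdx4 at chrX:155323918-155340754 (minus). Prdx5 lies at chr19:6906697-6910106 (minus) and Prdx6 at chr1:161240112-161251219 (minus). Gpx1 lies at chr9:108338903-108340343 (plus), Gpx4 at chr10:80047166-80056439 (plus) and Gpx8 at chr13:113042753-113046410 (minus). Counting was per gene, so isoforms such as the cytosolic, mitochondrial and nuclear forms of Gpx4 were not separated.

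How much of each transcript the cells held was compared on the authors' RPKM (reads per kilobase of gene and M counts), since CPM does not correct for length. In untreated WT cells Prdx1 led with 287.9 ± 11.4 RPKM (SD, n = 4), followed by Gpx4 at 217.6 ± 6.56. Prdx6 (129.5 ± 2.11) and Gpx1 (104 ± 4.76) came next on the same scale, then Prdx2 (56.38 ± 2.33) and Prdx5 (38.37 ± 2.32). Prdx3 (30.69 ± 1.14), Cat (27.53 ± 1.27), Gpx8 (16.4 ± 0.745) and Prdx4 (14.81 ± 0.571 RPKM) closed the order. No neighbours in this order overlapped between libraries, in untreated or in treated WT cells. Prdx1, the main cytosolic peroxiredoxin, thus held 31.18% ± 0.613 of the summed RPKM of the 10 genes, and catalase 2.985% ± 0.167. Order and shares rest on the authors' gene lengths. Taken with total counts, their RPKM imply 4.181 kb for Cat, 2.884 kb for Prdx1 and 1.673 kb for Gpx1, whose annotated span is 1441 bases.

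The order differed in untreated KO cells at its lower end. Prdx1 (233.8 ± 12.4 RPKM, n = 4) and Gpx4 (172.1) again came first. Prdx6 (111.4) and Gpx1 (107.4) now overlapped, as did Prdx5 (29.85), Prdx4 (28.86) and Prdx3 (28.56 RPKM). Prdx4, last in WT cells, now stood beside Prdx3 and Prdx5, and catalase was last with 13.61 RPKM. In treated KO cells Prdx4 (29.64), Prdx3 (28.84) and Prdx5 (28.77) likewise overlapped, and catalase was again last at 12.87 RPKM. Catalase's share of the summed RPKM was 1.69% ± 0.136 in untreated and 1.597% ± 0.0473 (n = 3) in treated KO cells.

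**Figure D1:**
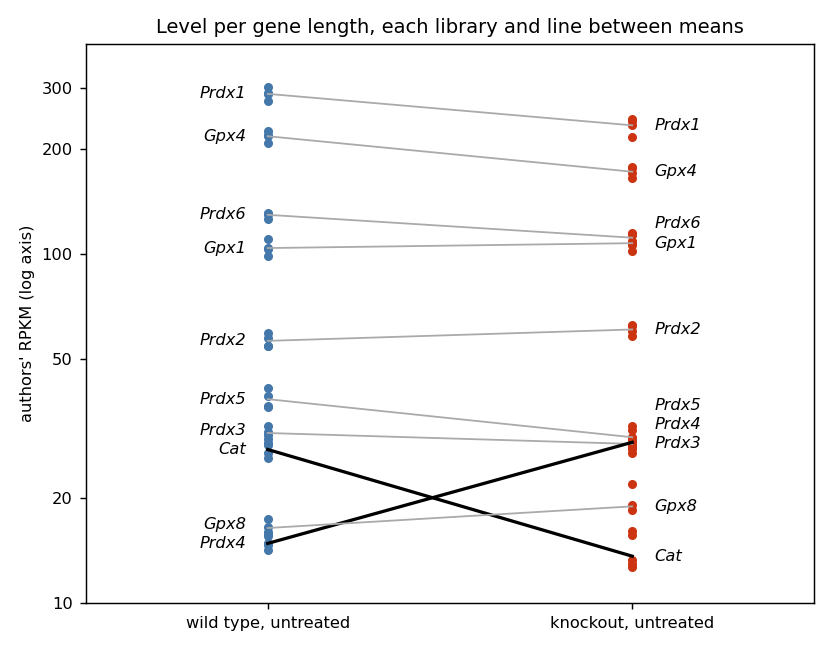
RPKM of the 10 genes on a log axis in the 4 untreated WT libraries (left, blue) and the 4 untreated KO libraries (right, red), with each point a library and each line joining the group means. The black lines of Cat (27.53 to 13.61 RPKM) and Prdx4 (14.81 to 28.86 RPKM) cross, while the other 8 lines are close to level.

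The summed RPKM of the 10 genes was lower in KO libraries. It was 923.2 ± 24.5 in untreated WT (903.3 to 956.3), 909.6 ± 18.1 in treated WT (891.1 to 933.1), 805.4 ± 18.4 in untreated KO (782.9 to 824.4) and 805.5 ± 5.01 in treated KO cells (801.4 to 811.1). The WT and KO ranges did not meet. The same genes took 0.2145%, 0.2105%, 0.1825% and 0.1823% of all counts in these 4 groups. Most of this sum comes from Prdx1, Gpx4, Prdx6 and Gpx1, the abundant members, and it says nothing of enzyme activity.

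The genotype comparison asks how these transcripts differ between the KO and WT cells, whatever the part of clone. In untreated cells 3 of the 10 were called higher in KO (Prdx2, Prdx4 and Gpx8) and 5 lower (Cat, Prdx1, Prdx5, Prdx6 and Gpx4), at a Benjamini-Hochberg adjusted p under 0.05 in edgeR's quasi-likelihood test over all tested genes. Prdx3 and Gpx1 were not called. The background is high, since 66.8% of all tested genes were called in this comparison, 33.9% higher and 32.9% lower, so 8 of 10 is not a result about these enzymes as a set. The libraries of the 2 genotypes did not overlap for 7 of the 10, against 58.5% of all tested genes. The median log2 difference was −0.13 and the median size 0.25, beside 0.00 and 0.30 over all tested genes. What the data show is therefore 2 members with a difference of about 1 on the log2 scale, in opposite directions, and 8 with differences of at most 0.33 in size.

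With H2O2 in both genotypes, 4 were called higher in KO (the same 3 and Gpx1) and 5 lower (again Cat, Prdx1, Prdx5, Prdx6 and Gpx4). Here 65.4% of tested genes were called, 33% higher and 32.4% lower. Groups did not overlap for 7 of the 10, against 66.4% of all tested genes. The median log2 difference was −0.12 and the median size 0.22, beside 0.00 and 0.31 over all tested genes. The 2 comparisons share no library, though they share 1 estimate of the spread. All 10 members had the same sign in both comparisons, as had 90.1% of all tested genes.

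**Figure D2:**
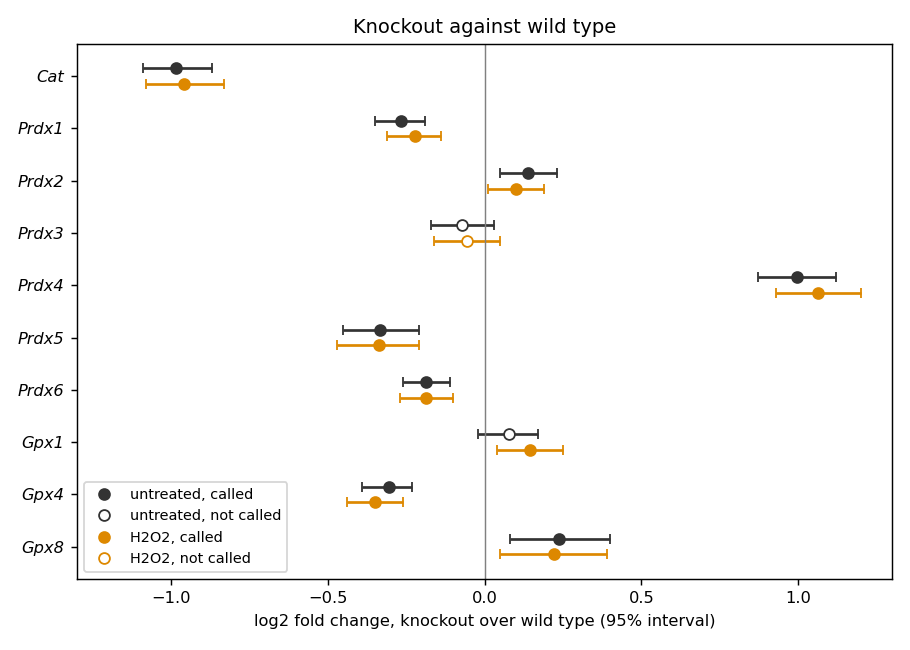
Log2 fold change of KO over WT for each gene, with 95% intervals, in untreated (black) and H2O2-treated (orange) cells, where filled points have an adjusted p under 0.05 and open points do not. Cat lies at −0.98 and −0.96 and Prdx4 at 0.99 and 1.06, while the other 8 genes lie between −0.35 and 0.24.

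Catalase was the member that fell most. In untreated WT cells it stood at 111.2, 117.3, 119.7 and 108.6 CPM in replicates 9 to 12. In untreated KO cells it stood at 54.91, 56.34, 53.74 and 65.9 CPM in replicates 1 to 4. Every KO library was far below every WT library, and KO replicate 4 was the highest of its group. The fall was 1.98-fold (log2 −0.98, SE 0.05, 95% interval −1.09 to −0.87, adjusted p 5.54e-16). With H2O2, WT replicates 13 to 16 held 108.1, 104.4, 106.5 and 101.6 CPM and KO replicates 5, 7 and 8 held 52.78, 53.49 and 56.37 CPM. That gap was 1.94-fold (log2 −0.96, SE 0.056, adjusted p 1.37e-14). The untreated call held without WT replicate 9 (adjusted p 3.24e-15).

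Prdx4, the peroxiredoxin of the ER that passes oxidising equivalents to protein disulfide isomerases, rose by a like factor. Its untreated WT libraries held 22.68, 24.87, 23.93 and 23.66 CPM. Its untreated KO libraries held 46.1, 51.62, 44.11 and 47.74 CPM. No library of either genotype came near the other group, and the rise was 1.99-fold (log2 0.99, SE 0.058, 95% interval 0.87 to 1.12, adjusted p 8.47e-15). In treated cells the WT libraries held 23.16, 22.97, 23.98 and 22.49 CPM and the KO libraries 51.88, 46.9 and 46.23 CPM, a 2.09-fold rise (log2 1.06, SE 0.062, adjusted p 1.12e-14). The ratio of catalase to Prdx4 counts in a library, which no scaling between libraries can move, was 4.802 ± 0.183 in untreated WT and 1.22 ± 0.12 in untreated KO cells (n = 4 each). It was 4.542 ± 0.0954 (n = 4) in treated WT and 1.127 ± 0.101 (n = 3) in treated KO cells. The lowest WT ratio was 4.44 and the highest KO ratio 1.38.

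**Figure D3:**
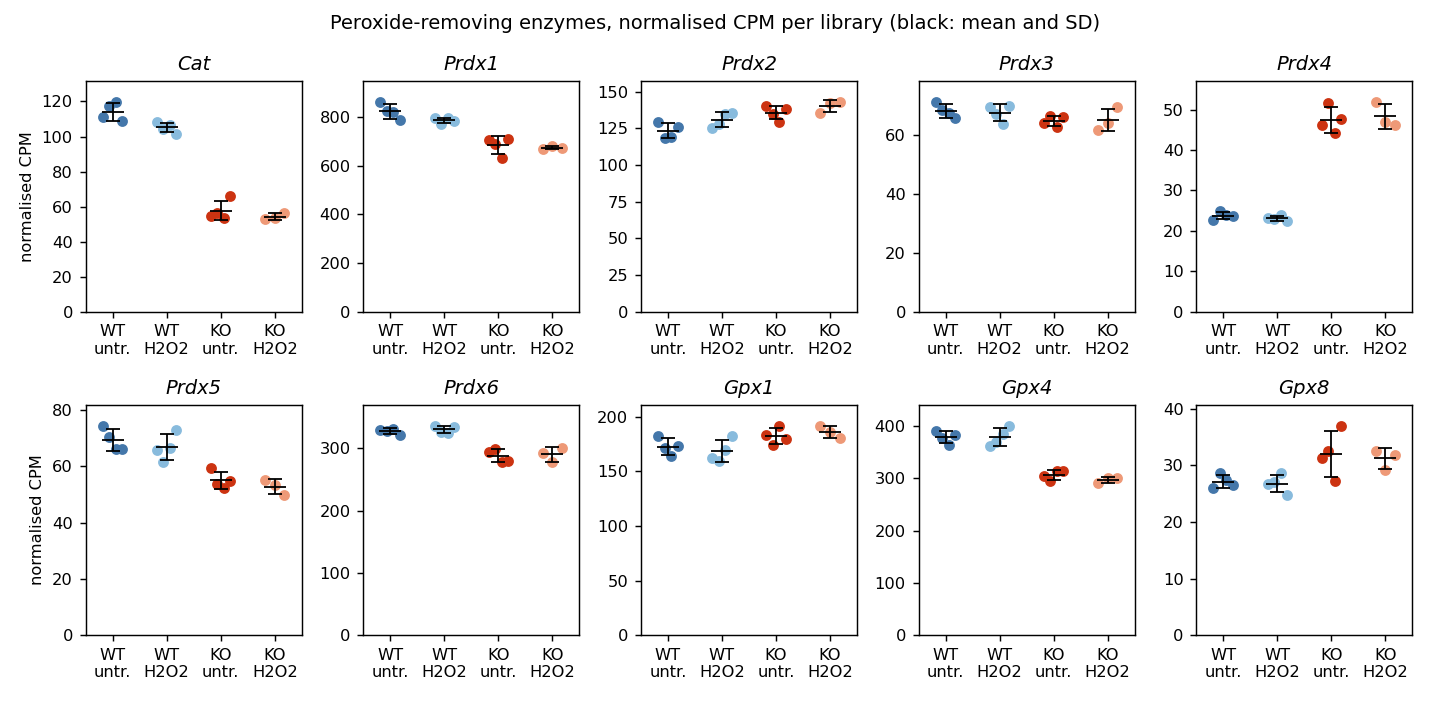
Normalised CPM of each gene in every library, as points, with the group mean and SD in black, for untreated and H2O2-treated WT (blue) and KO (red) cells, each panel on its own axis from 0. Cat and Prdx4 separate the genotypes widely, Prdx1, Prdx5, Prdx6 and Gpx4 by a smaller margin, and in no panel do treated and untreated libraries of 1 genotype lie as far apart.

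Among the other peroxiredoxins, the abundant cytosolic Prdx1 was lower in KO cells. Its untreated WT libraries held 861.1, 824.3, 821.6 and 787.2 CPM, and its untreated KO libraries 705.7, 688.3, 632.4 and 709.7 CPM. The groups did not overlap, and the fall was 1.2-fold (log2 −0.27, SE 0.037, adjusted p 2.84e-07). With H2O2 the means were 786.2 ± 11.1 and 673.7 ± 6.96 CPM, also without overlap (log2 −0.22, SE 0.04, adjusted p 1.84e-05). Because Prdx1 is the most abundant member, this modest ratio was the largest loss in RPKM, from 287.9 to 233.8.

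Prdx5, which works in several compartments, held 74.32, 70.35, 66.16 and 65.95 CPM in untreated WT cells. In untreated KO cells it held 59.35, 53.74, 52.28 and 54.75 CPM, all below the WT libraries. It fell 1.26-fold (log2 −0.33, SE 0.054, adjusted p 4.01e-06), and by log2 −0.34 (SE 0.059, adjusted p 1.49e-05) in treated cells. Prdx6, the peroxiredoxin that lacks a resolving cysteine and also has phospholipase activity, stood at 328.9, 328.2, 331.3 and 320.7 CPM in untreated WT cells. Its untreated KO libraries held 294.5, 298.7, 278.2 and 279.7 CPM. The ranges did not touch, and the fall was 1.14-fold (log2 −0.19, SE 0.035, adjusted p 3.5e-05), with log2 −0.19 (SE 0.038, adjusted p 9.5e-05) in treated cells.

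Prdx2, a cytosolic enzyme close to Prdx1, moved the other way by a small step. It held 129.1, 118.6, 119.3 and 125.7 CPM in untreated WT and 140.5, 134.9, 129.6 and 137.9 CPM in untreated KO libraries. The lowest KO value was just above the highest WT value, that of replicate 9, and the rise was 1.1-fold (log2 0.14, SE 0.04, adjusted p 0.00318). In treated cells the ranges overlapped, at 125.2 to 135.6 CPM in WT and 135.4 to 142.9 CPM in KO (log2 0.10, SE 0.043, adjusted p 0.0436). That last call was lost in 11 of 25 alternative analyses, 3 of them changes of scaling and 5 without 1 library (KO replicate 7 or 8, WT replicate 12, 13 or 14), with adjusted p from 0.0246 to 0.145 over the 25. Prdx3, the mitochondrial member, did not pass the test. Its means were 68.35 ± 2.33 and 65.02 ± 1.68 CPM in untreated WT and KO cells (log2 −0.07, 95% interval −0.17 to 0.03, adjusted p 0.162), and 67.74 ± 2.86 and 65.23 ± 3.9 CPM in treated ones (log2 −0.06, adjusted p 0.315). The ranges overlapped in both, and the untreated difference was called when libraries were scaled by total counts alone (log2 −0.10, adjusted p 0.0452).

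Of the glutathione peroxidases, Gpx4, which protects membranes from lipid peroxidation, was lower in KO cells. Its untreated WT libraries held 389.2, 377.4, 363.5 and 382.8 CPM and its untreated KO libraries 303.2, 293.8, 312.8 and 313.8 CPM. The groups were well apart, and the fall was 1.24-fold (log2 −0.31, SE 0.037, adjusted p 2.8e-08). With H2O2 the means were 378.4 ± 17.1 and 297 ± 5.76 CPM, a 1.27-fold fall (log2 −0.35, SE 0.04, adjusted p 1.31e-08). Gpx4 shares reads with a copy of itself: the processed pseudogene Gpx4-ps2 is 99.7% identical to it over 733 bases and held 394 to 615 counts a library, between 8.59% and 11.5% of the Gpx4 count. Gpx4-ps2 had log2 −0.29 (SE 0.068, adjusted p 0.000475) without and −0.14 (adjusted p 0.0979) with H2O2. The deposited values are expected counts, and the processing notes name RSEM, so reads of the 2 loci were divided by estimate. Its settings are not given in the sources used here, and the share of each locus is uncertain. Adding the Gpx4-ps2 counts to Gpx4 was among the 25 alternatives, and the Gpx4 call held in all of them. Over the 25, Gpx4 ranged from log2 −0.34 to −0.29 untreated and from −0.37 to −0.32 with H2O2.

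Gpx1, the soluble selenoenzyme, held 182.3, 171.5, 163.8 and 173.2 CPM in untreated WT and 183.5, 174.2, 191.9 and 179.8 CPM in untreated KO libraries. These ranges overlapped, and the difference did not pass the test (log2 0.08, 95% interval −0.02 to 0.17, adjusted p 0.109). Replicate 9 was the highest WT library, and without it the difference was called (log2 0.11, adjusted p 0.0451). With H2O2 the rise was called (168.7 ± 10.3 to 186.2 ± 5.34 CPM, log2 0.14, SE 0.047, adjusted p 0.00835) although the libraries overlapped, and it was lost without KO replicate 5 (adjusted p 0.0556). Gpx8, the cysteine-bearing ER member, held 25.99, 28.69, 27.34 and 26.47 CPM in untreated WT and 31.25, 32.45, 27.22 and 36.99 CPM in untreated KO libraries. KO replicate 3 lay within the WT range and replicate 4 far above it (log2 0.24, SE 0.072, 95% interval 0.08 to 0.40, adjusted p 0.00487). With H2O2 its means were 26.78 ± 1.57 and 31.22 ± 1.8 CPM, without overlap (log2 0.22, SE 0.078, adjusted p 0.0152). This call was lost without KO replicate 5 (adjusted p 0.0825), without KO replicate 8 (0.0501) and without WT replicate 16 (0.053).

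The treatment comparison asks whether 1 µM H2O2 moved the enzymes that remove it. No member was called in either genotype. In WT cells 0 of 10 passed, against a background of 0.0153% of tested genes (2 genes). At an unadjusted p under 0.05 there were 2, Cat (0.0203) and Prdx2 (0.0418), with adjusted p of 0.695 and 0.757. In KO cells 0 of 10 passed, against 0.0535% (7 genes), and none had an unadjusted p under 0.05. The median size of the members' log2 differences was 0.04 in WT and 0.03 in KO cells, beside 0.05 and 0.06 over all tested genes. DESeq2, voom and limma on log2 RPKM called no member either.

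Catalase was the only member whose treated and untreated WT libraries did not overlap, beside 3.81% of all tested genes, with a highest treated library of 108.1 CPM and a lowest untreated one of 108.6 CPM. Its difference was log2 −0.12 (95% interval −0.22 to −0.01). In KO cells it was −0.09 (−0.22 to 0.04, adjusted p 0.732) with overlapping libraries, as for all 10 members there, beside 7.71% of all tested genes without overlap. The intervals limit what could have been missed. For Prdx1 the interval in WT cells was −0.15 to 0.01, for Prdx4 −0.18 to 0.10, for Gpx4 −0.08 to 0.08 and for Gpx8 −0.18 to 0.14. In KO cells the same 4 genes had intervals of −0.11 to 0.07, −0.10 to 0.16, −0.13 to 0.05 and −0.20 to 0.14.

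The interaction, which is the H2O2 difference in KO minus that in WT cells, was called for 0 of the 10 members and for 0% of all tested genes. No member had an unadjusted p under 0.05, and the smallest adjusted p was 0.938, for Gpx1 (log2 0.06, 95% interval −0.07 to 0.20). For Cat the value was 0.03 (−0.14 to 0.19) and for Prdx4 0.07 (−0.12 to 0.26). A difference between the genotypes in the response of these 10 genes was not detectable beyond such intervals.

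**Figure D4:**
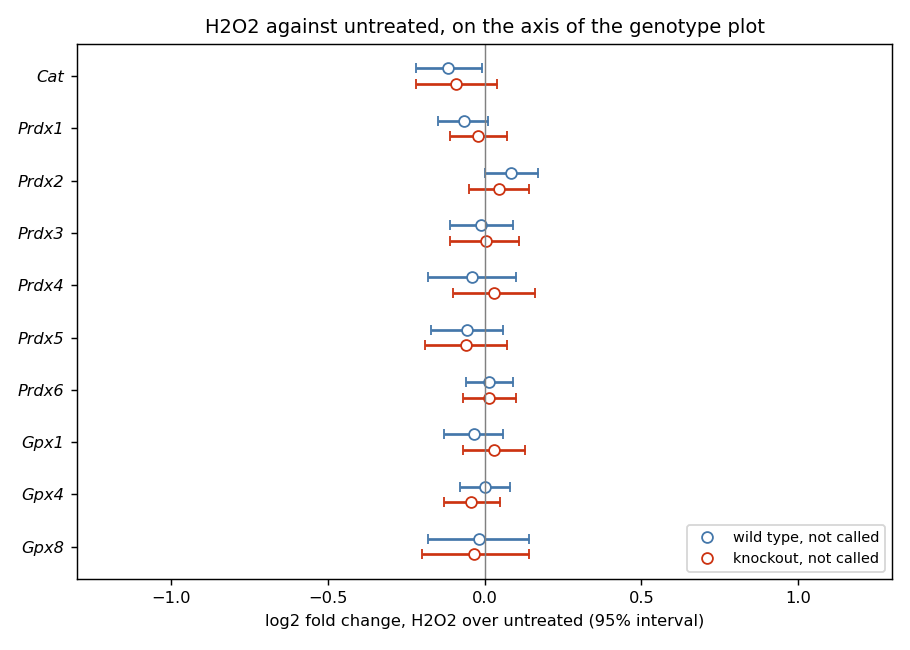
Log2 fold change of H2O2-treated over untreated cells for each gene with 95% intervals, in WT (blue) and KO (red) cells, on the same axis width as the genotype plot. All points are open, none having an adjusted p under 0.05, and they lie between −0.12 (Cat in WT) and 0.09 (Prdx2 in WT).

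Some counts could hold reads of other genes. Prdx2 overlaps Rnaseh2a (355 to 566 counts a library) and Junb (517 to 1264), Prdx5 overlaps Trmt112 (452 to 588) and Gpx8 overlaps Cdc20b (0 to 2), all on the opposite strand. The library kit keeps strand, but the strand setting of the counting is not given in the sources used here, so the small differences of Prdx2 and Prdx5 carry that uncertainty. Apart from Gpx4, loci at least 95% identical over 200 bases held 0.12% of the Prdx1 count and 0.02% of the Prdx2 count, and none was found for the other 7 members. The rest of both families was near silent: Gpx3, the secreted form, had 3 to 10 counts a library, Gpx7 had 0 to 2, and Gpx2, Gpx5, Gpx6 and Prdx6b had 0.

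The start sites of Cat and Prdx4 are shown because these members had the largest genotype differences. The set of RefSeq start sites used here, on GRCm38.p6, covers 9 of the 10 members and has no entry for Prdx6. The 250 bases before the RefSeq start lie at chr2:103485154-103485403 (minus) for Cat and at chrX:155338461-155338710 (minus) for Prdx4. The Prdx4 window falls inside the GENCODE span of the gene (chrX:155323918-155340754), so the outermost GENCODE start of Prdx4 is a different one. They are printed from the C57BL/6J reference, which is not the strain of the cells, with each CCAAT box (CCAAT, or ATTGG on the other strand) in capitals.
Cat: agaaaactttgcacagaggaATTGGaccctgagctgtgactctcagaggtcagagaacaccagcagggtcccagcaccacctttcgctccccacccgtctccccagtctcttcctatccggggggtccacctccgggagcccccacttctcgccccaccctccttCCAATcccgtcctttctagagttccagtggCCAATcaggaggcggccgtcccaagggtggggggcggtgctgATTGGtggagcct
Prdx4: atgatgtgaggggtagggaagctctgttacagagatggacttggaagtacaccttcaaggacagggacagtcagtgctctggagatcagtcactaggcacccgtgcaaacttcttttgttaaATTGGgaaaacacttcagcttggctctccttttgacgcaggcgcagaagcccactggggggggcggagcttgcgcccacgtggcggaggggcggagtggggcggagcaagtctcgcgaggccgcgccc
Cat has 4 CCAAT boxes, whose first bases lie at −230, −85, −55 and −13 from the start, and Prdx4 has 1, at −128. Prdx4 has 3 copies of GGGCGG, the core of an Sp1 box, at −68, −40 and −30, and Cat has 1 at −24. The windows are 62% and 58.8% G or C, beside a median of 52.4% over 32851 start sites. On either strand, and in 300 bases that also cover 50 after the start, CCAAT was found for 3 of the 9 members and for 41.1% of all 27025 genes (37.4% of windows), GGGCGG for 8 of 9 and for 38.2% (35.7%), and TATAAA for 2 of 9 and for 15.7% (13.6%). TGACNNNGC, the core of the antioxidant response element, was found for 1 of 9, Prdx1, and for 14% of all genes (12.4% of windows). A gene with several start sites, such as Gpx4, was counted if any of them held the motif. These matches describe letters only.

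The genes beside Cat and Prdx4 had smaller differences, in both directions. The nearest tested genes to Cat are Apip, 361.2 kb away (log2 −0.27, SE 0.097, adjusted p 0.0158), and Abtb2, 81.2 kb away on the other side (0.56, SE 0.12, adjusted p 0.000283), in untreated KO against WT cells. Apip lost its call without KO replicate 3 or WT replicate 10. Prdx4 lies 26.3 kb from Acot9 (−0.25, SE 0.042, adjusted p 8.12e-06) and 1675.5 kb from Gm15163 (0.49, SE 0.14, adjusted p 0.00238). Across the 15 libraries, among 10196 genes over 5 CPM, the genes most like Cat by root mean square difference of centred log2 CPM were Nucb2 (0.05), Creg1 (0.056) and Sgpl1 (0.066). Creg1, for instance, had means of 148 CPM in untreated WT and 74.8 CPM in untreated KO cells. Those most like Prdx4 were Ipmk (0.071), Xlr (0.074) and Uggt2 (0.076), the last with means of 24.2 and 48 CPM. The 15 libraries share 2 genotypes, so likeness here is mostly a like genotype difference.

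Genes of the thioredoxin system, which recharges peroxiredoxins, were mixed in direction. Of 12 such genes, all tested, 6 were called higher and 4 lower in untreated KO cells, with a median log2 of 0.10. The list also holds the sestrins and Txnip, so these counts are not of recharging enzymes alone. Sesn3, one of the sestrins, stood at 17.34 ± 1.65 CPM in WT and 6.11 ± 0.265 CPM in KO cells and fell by log2 −1.50 (SE 0.1, adjusted p 1.67e-13). Sesn1 rose by log2 0.90 (SE 0.085) with means of 8.189 ± 0.672 and 15.31 ± 1.34 CPM. Txnip, which binds and blocks thioredoxin, rose by log2 1.67 (SE 0.14, adjusted p 3.3e-11), its means being 2.989 ± 0.515 and 9.554 ± 1.82 CPM. Genes named after their values were seen are Srxn1, the sulfiredoxin that rescues overoxidised peroxiredoxins (log2 −0.39, adjusted p 1.54e-08), cytosolic thioredoxin Txn1 (0.17, adjusted p 0.000813) and its reductase Txnrd1 (−0.14, adjusted p 0.000684). Mitochondrial Txn2 stood at 130.3 ± 7.88 and 132.8 ± 1.9 CPM (log2 0.03, adjusted p 0.569).

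Genes of glutathione synthesis and recycling, on which Gpx1 and Gpx4 draw, were split as well. Of 14 genes 12 were tested, 5 higher and 6 lower (median log2 −0.14). The list also holds Chac1, Chac2 and the glutaredoxins (Glrx genes), so these counts are not of glutathione supply alone. The 3 named by smallest p all rose: glutathione reductase Gsr by log2 0.49 (107.1 ± 6.2 against 150.7 ± 5.76 CPM, SE 0.041, adjusted p 1.68e-11), glutathione synthetase Gss (0.44, SE 0.052) and Glrx3 (0.35, SE 0.043). On the supply side, Slc7a11, the cystine importer, fell by log2 −1.02 (57.15 ± 7.32 against 28.27 ± 4.02 CPM, SE 0.13, adjusted p 1.07e-05), and Gclc, the rate-limiting ligase, fell by log2 −0.32 (SE 0.048). These last 2 were picked after their values were seen. NADPH-supply genes numbered 3 higher and 6 lower of 10 tested (median −0.21), with Nnt (log2 −0.53, SE 0.049), Aldh1l2 (−0.60, SE 0.054) and Me1 (−0.48, SE 0.049) named by rule. Gpx1 and Gpx4 protein depends on selenocysteine incorporation. Of 10 genes listed for selenium handling and this incorporation, 3 were higher and 3 lower (median −0.05). Those named by rule are Secisbp2l at −0.42 (SE 0.037), Lrp8 at −0.72 (SE 0.059) and Sephs1 at 0.44 (SE 0.048). Sephs2, Secisbp2, Eefsec and Trnau1ap were not called.

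Genes in the compartments of the 2 most changed members were also counted. Of 20 peroxisome biogenesis genes, which build the organelle of catalase, 4 were higher and 9 lower (median log2 −0.16), with Pex14, part of the import pore, at 0.40 (SE 0.049) and Pex2 at −0.38 (SE 0.053). With H2O2 the counts were 4 and 6. The import receptor of catalase, Pex5, stood at 54.65 ± 3.02 and 57.38 ± 2.8 CPM (log2 0.07, adjusted p 0.187). Of 12 ER disulfide isomerases and relatives, from the compartment of Prdx4 and Gpx8, 2 were higher and 9 lower (median −0.35). Most thus stood opposite to Prdx4. The calls of Tmx1 (higher) and Txndc11 (lower) were lost in 12 and 3 of 25 alternatives. Pdia4 fell by log2 −0.74 (1785 ± 47.3 against 1066 ± 47.8 CPM, SE 0.038, adjusted p 4.15e-16), Pdia3 by log2 −0.60 (SE 0.043) and Pdia6 by log2 −0.50 (SE 0.036). The ER oxidase Ero1l stood at 768.4 ± 58.7 and 877.6 ± 84.4 CPM (log2 0.19, adjusted p 0.0822), and was called in 4 of 25 alternatives, including those without KO replicate 4 or 7. With H2O2 it was called higher in KO cells (745.9 against 992.8 CPM, log2 0.41, adjusted p 0.00254).

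**Figure D5:**
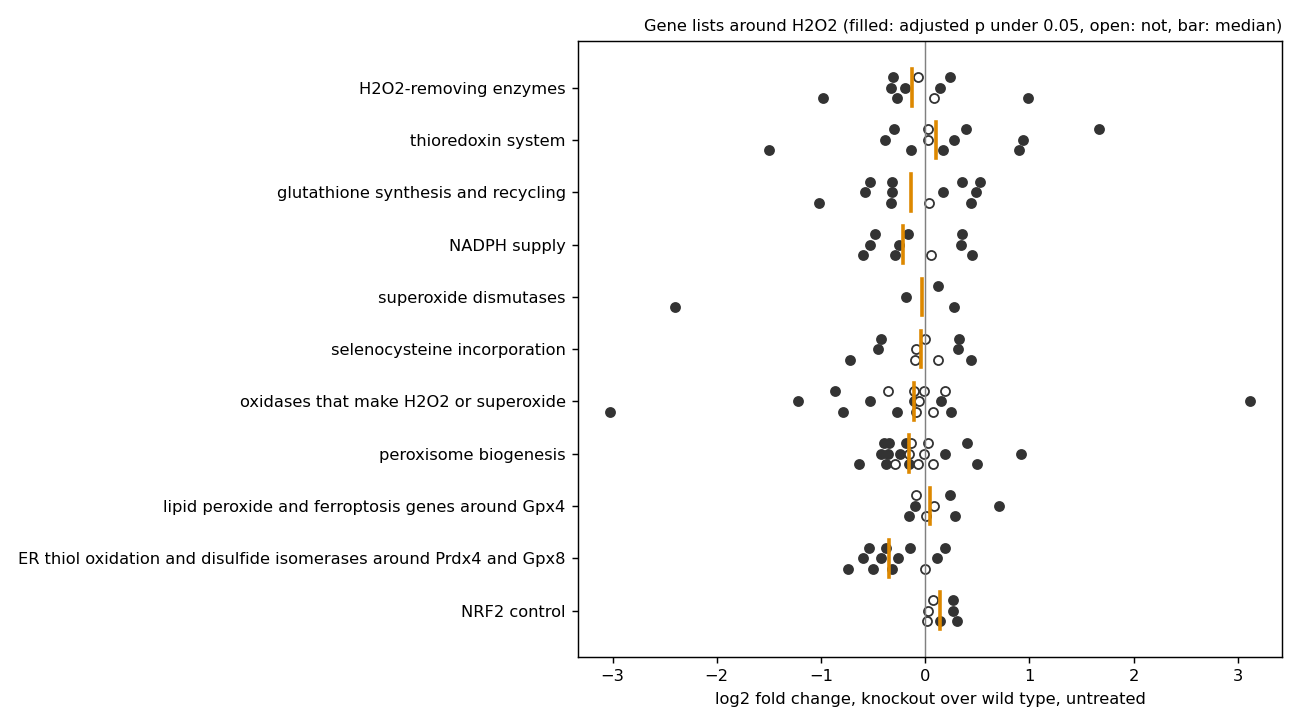
Log2 fold change of untreated KO over WT cells for every tested gene of the 10 members and of the lists around them, each point a gene (filled where the adjusted p is under 0.05, spread vertically for legibility) and each orange bar a list median. The medians lie between −0.35 (ER disulfide isomerases) and 0.14 (NRF2 control), and in all lists but NRF2 control called genes lie on both sides of 0.

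Sources of peroxide moved in both directions. The 3 superoxide dismutase genes and Ccs, the copper chaperone that loads Sod1, were all called, 2 higher and 2 lower (median −0.03). Extracellular Sod3 fell by log2 −2.40 (8.817 ± 0.932 against 1.658 ± 0.398 CPM, SE 0.15, adjusted p 2.52e-14), while cytosolic Sod1 rose by log2 0.28 (SE 0.041, adjusted p 1.03e-06) and mitochondrial Sod2 by 0.12 (SE 0.047, adjusted p 0.0246). The Sod2 call was lost in 8 of 25 alternatives, among them those without KO replicate 3, WT replicate 9 or WT replicate 12. Of 29 oxidase symbols 17 were tested, 3 higher and 7 lower (median −0.11). Loxl3, a lysyl oxidase that makes H2O2 outside the cell, rose by log2 3.12 (7.479 ± 0.541 against 65.26 ± 5 CPM, SE 0.072, adjusted p 4.25e-24). Its relative Loxl4 fell by log2 −1.22 (126.5 ± 7.47 against 54.1 ± 3.7 CPM, SE 0.048). Acox3, a peroxisomal oxidase and so a source of H2O2 beside catalase, fell by log2 −0.87 (SE 0.064). Acox2, of the same kind and picked after its values were seen, fell by log2 −3.02 (5.917 ± 0.794 against 0.7253 ± 0.13 CPM, SE 0.23, adjusted p 2.2e-12).

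Around Gpx4, 3 of 8 tested lipid peroxide and ferroptosis genes were higher and 2 lower (median 0.05), with the transferrin receptor Tfrc at 0.71 (SE 0.098), Vkorc1l1 at 0.24 (SE 0.051) and Acsl4 at −0.16 (SE 0.043). Of 7 genes that control NRF2, the factor behind many antioxidant genes, 4 were higher and 0 lower (median 0.14), with Nfe2l2 itself at 0.30 (SE 0.035, adjusted p 1.94e-08) and Mafk (SE 0.043) and Maff (SE 0.066) both at 0.27. No gene of any of these lists was called in a treatment comparison or in the interaction. Counts and medians of the lists stand against the 33.9% higher, 32.9% lower and median of 0.00 over all tested genes.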

How the data were processed

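Poly(A) RNA was sequenced as read pairs from TruSeq Stranded libraries, per the labels' protocols. The authors deposited expected counts per gene symbol, rounded to whole numbers before deposit, and RPKM values. The submitters' processing notes name cutadapt, STAR, RSEM and mm10, and settings are not given in the sources used here. Over 9805 genes each deposited RPKM equalled the count over a gene and a library constant (largest relative deviation 9.3e-15).

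Counts were tested with edgeR 4.0.16 (R 4.3.3, limma 3.58.1): filterByExpr (13085 genes, 99.917% of counts), TMM scaling, and 1 robust quasi-likelihood fit of 4 group means over 15 libraries (11 residual degrees of freedom, common biological variation 4.96%). Every adjusted p is edgeR's, Benjamini-Hochberg over all genes tested, called under 0.05, unless another tool is named. Each sum and RPKM level is a description without a test. Alternatives were DESeq2 1.42.0, voom, limma on log2(RPKM + 0.1), other scalings and filters, and leaving out each library. Further ones added pseudogenes named after a member to its counts, or fitted only the groups compared. The scripts were tested on simulated data. Members and lists were chosen with earlier results of these data known. From each list the 3 called genes with the smallest adjusted p in the untreated genotype comparison are named, except 1 that is not reported here. Replicate pairs differed beyond sampling noise (chi-square per degree of freedom 2.07 to 8.13), so none was counted as a duplicate.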

Additional observations from a re-analysis of the deposited data

How the results depend on the processing

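Each result was recomputed under 25 alternatives, 15 of them leaving out 1 library. No called member value changed direction. Of the values of single members, 1232 kept their side of the threshold, 15 lost the call and 3 gained it. Among the 1232 were 822 uncalled both ways, of which 55 had the opposite sign. The lost calls were those of Prdx2 (11), Gpx8 (3) and Gpx1 (1) with H2O2, and those gained were Prdx3 (total counts only, limma on log2 RPKM) and Gpx1 (without WT replicate 9), all untreated. Cat stayed between −1.05 and −0.95 and Prdx4 between 0.95 and 1.02 on the log2 scale without treatment, and between −0.98 and −0.94 and between 1.01 and 1.09 with it. Leaving out 1 library, 2 to 4 members were called higher in KO with H2O2 (2 without KO replicate 5 or 8). Among the lists without treatment, called genes of the superoxide dismutase list came to 1 higher or 1 lower, lower ferroptosis genes to 1 and higher ER isomerases to 1 under some settings, the other list counts staying within 1.5 times. Over all genes, calls for H2O2 in WT cells (2) became 12 without the filter, 9 with DESeq2 and 0 with voom, with limma on log2 RPKM and with only the compared groups fitted, and 0 to 13 without 1 library. In KO cells (7) they became 27 without the filter, 53 with DESeq2, 3 with limma on log2 RPKM and 0 to 21 without 1 library. Calls for the interaction (0) became 5 without the filter, 15 with DESeq2, 3 with voom and 0 to 3 without 1 library. The cause was not tested. No paired analysis was possible because the groups share no replicate number. The lowest members, Prdx4 and Gpx8, were at 22.49 CPM or more in every library. Dixon's test of outlying libraries, run on 30 sets of 4 values, marked 0.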
